A study of Homo sapiens with 31 samples.

Results

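The genes followed here are 36 aminoacyl-tRNA synthetases, the enzymes that join each amino acid to its transfer RNA. They were taken by gene symbol from a fixed list, out of 74834 rows in the deposited table, and all 36 were among the 16259 rows tested, which have a mean normalized read count of at least 10. The cytosolic set holds 20 genes. The mitochondrial set holds 16 genes, whose symbols end in 2. Of the 36, 30 had a row of their own symbol, and 5 had a row that also names another gene or a microRNA. These were MARS, QARS and TARS2 with a microRNA, SARS2 with FBXO17, and VARS2 with GTF2H4. The row of MARS2, whose symbol the table shows as a date, was found by its Entrez gene ID and description.

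Messenger RNA was measured by sequencing poly(A) RNA of cultured H460 cells, a human line established from a non-small cell lung cancer, after 6 h of treatment, in 31 libraries of 8 groups. The treatments were B87 + DMKG + Rita (n = 4), B87 + DMKG + Nutlin-3 (n = 4), B87 + DMKG (n = 4), DMKG (n = 4), B87 (n = 4), Rita (n = 4) and Nutlin-3 (n = 3), and Control cells were untreated (n = 4). DMKG, used at 5 mM, stands for dimethyl α-ketoglutarate, which enters cells and yields a tricarboxylic acid cycle intermediate, and B87, used at 1 µM, stands for BAY87-2243, which inhibits respiratory chain complex I. Nutlin-3, at 30 µM, fills the pocket where MDM2, a ubiquitin ligase, holds p53, and Rita, at 50 µM, is known as a p53 ligand that keeps MDM2 away. The series asked how the treatments act on transcription in the setting of cell death, and the groups also allow a test of whether the inhibitors change the response to B87 + DMKG.

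Synthetases work in 2 compartments. The cytosolic enzymes charge the transfer RNAs used by cytosolic ribosomes, and a separate set, encoded in the nucleus and imported, charges the transfer RNAs encoded by the mitochondrial genome, which serve the few proteins made inside mitochondria. KARS and GARS supply both compartments from 1 gene each, EPRS joins the glutamyl and prolyl enzymes in 1 protein, and phenylalanyl-tRNA synthetase is built from the FARSA and FARSB subunits. Of the cytosolic enzymes, EPRS, IARS, LARS, QARS, MARS, KARS, RARS and DARS sit in the multi-synthetase complex held by the scaffold proteins AIMP1, AIMP2 and EEF1E1, and the others are free. Many cytosolic synthetase genes are known targets of ATF4, the transcription factor of the integrated stress response, which cells switch on when amino acids run short or when mitochondria or the endoplasmic reticulum fail, and which also drives amino acid synthesis and import. ATF4 binds, with partners of the C/EBP family, to C/EBP-ATF response elements, and NRF1 (nuclear respiratory factor 1) is known for binding GC-rich sites in promoters of genes for mitochondrial proteins.

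Promoter sequence was read from RefSeq windows that run from 250 bases before to 50 bases after a gene's start (GRCh38.p14), and 30 of the 36 members matched; DARS, LARS, VARS, YARS, AARS2 and VARS2 were not matched. The letters of a C/EBP-ATF response element, TGATGNAA, searched on both strands and so also as TTNCATCA, were found in 7 of 16 cytosolic members and 1 of 14 mitochondrial members, against 4.46% of 27305 genes in the table. All 7 cytosolic matches lay in a list of 13 members linked in the literature to ATF4 as targets, of which 10 had a window. The list holds AARS, CARS, EPRS, GARS, IARS, LARS, MARS, NARS, SARS, TARS, VARS, WARS and YARS. The 6 other cytosolic members with a window had none. The list was chosen with earlier results of these data known and may itself rest on such elements, so this split is no independent test. The 8 matches are shown with 60 bases of their promoters, 5′ to 3′ on the gene's strand with the match in capitals, because most of these genes rose together with Nutlin-3 and fell together with B87 + DMKG:
AARS (chr16:70289660-70289719, minus strand): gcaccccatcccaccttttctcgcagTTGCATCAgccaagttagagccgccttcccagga
CARS (chr11:3057394-3057453, minus strand): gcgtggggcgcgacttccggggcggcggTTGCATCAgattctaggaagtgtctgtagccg
GARS (chr7:30594819-30594878, plus strand): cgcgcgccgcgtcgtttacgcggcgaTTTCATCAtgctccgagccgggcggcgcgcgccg
IARS (chr9:92293677-92293736, minus strand): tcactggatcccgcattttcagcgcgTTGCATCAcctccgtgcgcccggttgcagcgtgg
MARS (chr12:57488038-57488097, plus strand): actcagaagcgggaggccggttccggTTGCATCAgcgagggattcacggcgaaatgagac
NARS (chr18:57621807-57621866, minus strand): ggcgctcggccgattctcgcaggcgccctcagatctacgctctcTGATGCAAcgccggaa
TARS (chr5:33440935-33440994, plus strand): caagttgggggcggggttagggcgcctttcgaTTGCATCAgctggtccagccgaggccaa
YARS2 (chr12:32756061-32756120, minus strand): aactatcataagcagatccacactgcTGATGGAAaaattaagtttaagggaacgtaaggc

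In CARS, IARS, MARS and TARS the capitals read TTGCATCA within 13 bases of the start site, and in NARS the same element stands in the other direction 14 bases after it. In AARS it lies 187 bases before the start, in GARS the letters are TTTCATCA and lie 33 bases before it, and in YARS2 TGATGGAA lies 197 bases before it. SARS and WARS, which had the largest rises with Nutlin-3, hold no match in these windows.

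One form of an NRF1 site, GCGCA and GCGC parted by any 1 base, searched on both strands and so also as GCGC and TGCGC parted by any 1 base, was found in 3 of 16 cytosolic members (FARSB, SARS and TARS) and 3 of 14 mitochondrial members, against 6.98% of all genes. The 3 mitochondrial members are shown because they had the largest falls with B87 + DMKG:
IARS2 (chr1:220094091-220094150, plus strand): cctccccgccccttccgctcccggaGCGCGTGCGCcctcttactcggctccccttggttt
MARS2 (chr2:197705317-197705376, plus strand): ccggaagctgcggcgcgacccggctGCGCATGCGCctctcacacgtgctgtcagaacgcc
PARS2 (chr1:54764494-54764553, minus strand): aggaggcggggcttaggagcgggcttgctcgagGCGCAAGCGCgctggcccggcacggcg

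The match starts 16 bases before the start site in IARS2, 27 bases before it in MARS2, which holds another match 133 bases before it, and 3 bases after it in PARS2. These letters describe the windows and are not measured binding sites. The bases just after the PARS2 start were not found in a GENCODE v29 transcript of that gene, so its distance is less certain.

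Values are the authors' DESeq2-normalized read counts, a log2 fold change is a difference of mean log2(normalized read count + 1) given with its standard error, and rises and falls are calls of limma, with p under 0.05 after Benjamini-Hochberg adjustment over the 16259 rows. Libraries held 33.4 to 82.5 M reads (median 63.1 M). Of 6 epithelial markers the keratins were high (KRT8 averaged 102325 normalized reads, KRT18 73205.1 and KRT19 115189.5), CDH2 (90.9) and EPCAM (50.8) were low, and CDH1 was near 0 (2.77). Of 5 leukocyte markers PTPRC (1.93), CD3E (0.0570) and ITGAM (6.09) were near 0, CD14 averaged 174.6, and CD68 averaged 219485 in a row that also names EIF4A1 and SENP3, so that level is not that of CD68 alone. The 4 endothelial markers averaged 0.274 to 11.2, and the 5 fibroblast markers 1.33 (COL1A2) to 683 (COL1A1). Some rows overlap a neighbour, and whether counting used the strand is not given in the sources used here: HARS and HARS2 share 5425 bases, SARS2 shares 2470 with MRPS12, YARS2 shares 1504 with DNM1L, CARS2 shares 981 with ING1, KARS shares 907 with TERF2IP, and the AARS row lies inside that of EXOSC6, so these values are less certain. Each library joined 2 wells, and separate experiments are not stated, so p-values measure the spread between these libraries, which may be technical. In bulk RNA, fewer cells and less RNA per cell cannot be told apart, and without an added standard every change is relative to the other genes. Giving all libraries an equal total moved the median log2 fold change of all rows by -0.25 (B87 + DMKG + Rita against Control) to 0.12 (B87 + DMKG beyond additive), so medians of a list are read against the median of all rows.

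In Control cells the cytosolic genes were the more abundant set. Per kilobase of exon (GENCODE v29), the median over the cytosolic genes was 2732 normalized reads and over the mitochondrial genes 435. A length joined all annotated exons of a gene, such as 10.0 kb for CARS and 8.45 kb for VARS2, so ranks may depend on it. The VARS2 row also names GTF2H4. GARS, the glycyl enzyme that serves both compartments, was highest at 6692 ± 935 reads per kilobase, next to IARS2, the mitochondrial isoleucyl enzyme, at 6624 ± 220 (SD, n = 4 each), a difference well inside the spread of GARS. KARS, the other gene shared by both compartments, followed at 4938 ± 179, with FARSB at 4778 ± 69.0 and IARS at 4687 ± 117. At the other end stood VARS2 at 72.3 ± 2.82, WARS2 at 78.7 ± 3.08 and FARS2 at 83.6 ± 11, where the spread of FARS2 covers WARS2 and just misses VARS2. IARS2 was thus far above the rest of its set, where YARS2 came next at 1063 ± 94.6, and CARS (366 ± 59.5) and LARS (838 ± 22.3) were the cytosolic genes below that level.

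**Figure D1:**
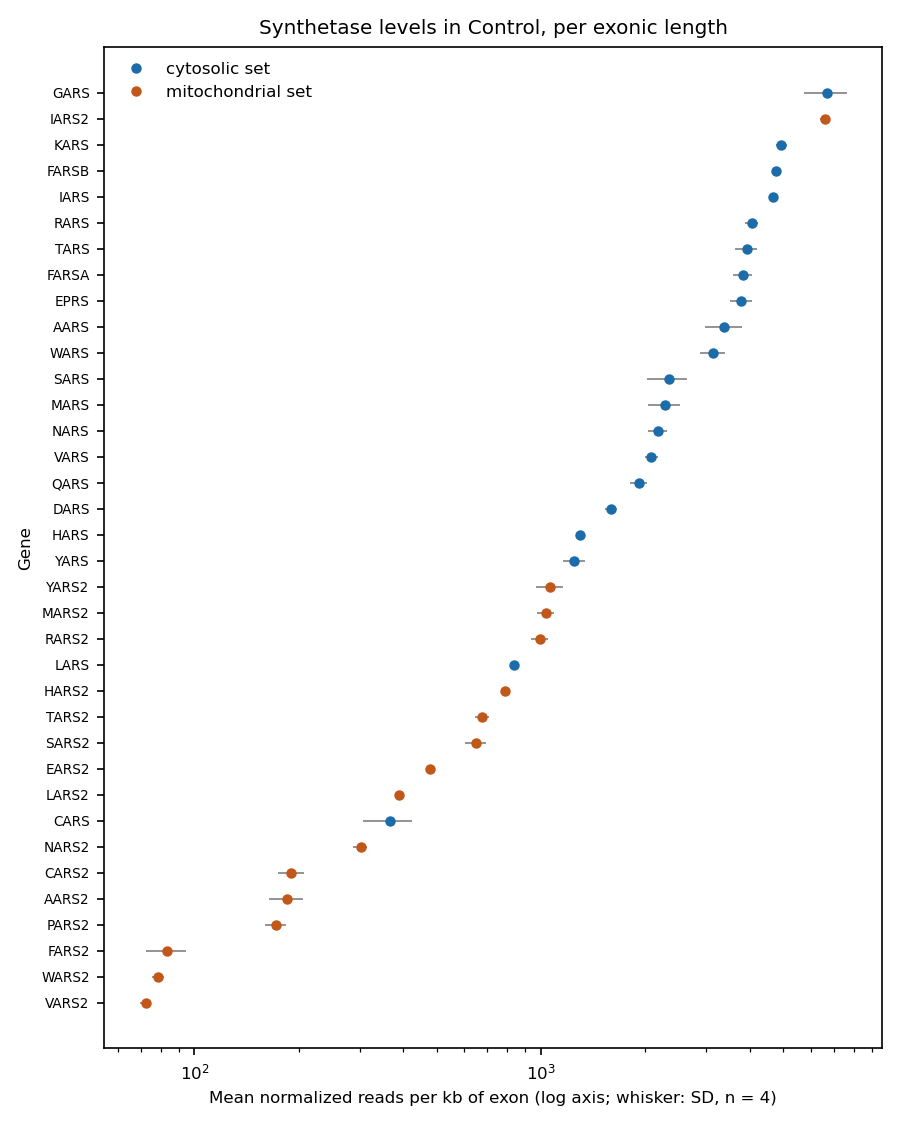
Mean normalized reads per kilobase of exon of the 36 synthetase genes in the 4 Control libraries on a log axis, with the SD as whiskers, cytosolic genes in blue and mitochondrial genes in orange. GARS and IARS2 stand at the top near 6692 and 6624 reads per kilobase, and VARS2 stands at the bottom at 72.3.

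Replicates lay close together. The median SD of log2 values over the members was 0.0496 (B87 + DMKG + Rita) to 0.137 (B87 + DMKG) within groups, against 0.123 and 0.249 for all rows in the same 2 groups. Among Control libraries, replicate 3 had the lowest value for 11 of the 13 ATF4-linked members and for none of the 7 other cytosolic members. ATF4 itself followed the same library, with 51776, 56855, 40947 and 50284 normalized reads in Control replicates 1 to 4.

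The mean levels of the sets moved apart with both Nutlin-3 and Rita. The mean log2 level over the cytosolic genes minus that over the mitochondrial genes, a value that no scale factor per library can move, was 3.39 to 3.45 in B87 + DMKG + Rita libraries, 3.28 to 3.38 in B87 + DMKG + Nutlin-3, 3.31 to 3.41 in Rita and 3.30 to 3.47 in Nutlin-3, against 2.85 to 3.01 in Control. No library with Nutlin-3 or Rita overlapped a Control library on this measure. In libraries without an inhibitor it was 2.88 to 3.11 for B87 + DMKG, 2.98 to 3.15 for DMKG and 2.90 to 3.00 for B87, which overlap Control. Relative to the Control mean, the cytosolic genes averaged 0.25 to 0.29 (log2) in Nutlin-3 libraries and -0.34 to -0.30 in B87 + DMKG libraries, and the mitochondrial genes averaged -0.46 to -0.33 in B87 + DMKG + Nutlin-3 libraries. In B87 + DMKG + Nutlin-3 the set medians lay closer together than the set means. Against Control the medians were -0.03 (cytosolic) and -0.12 (mitochondrial), and the means -0.03 and -0.40. Under quantile normalization the medians were -0.09 and 0.05, against 0.10 over all rows. Among the Nutlin-3 libraries, replicate 1 stood apart with a mitochondrial mean of -0.06, against -0.24 and -0.26 in replicates 2 and 3. It also had the lowest share of reads from the mitochondrial genome in its group, 2.42%, against 4.33% and 5.39% in the other two.

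**Figure D2:**
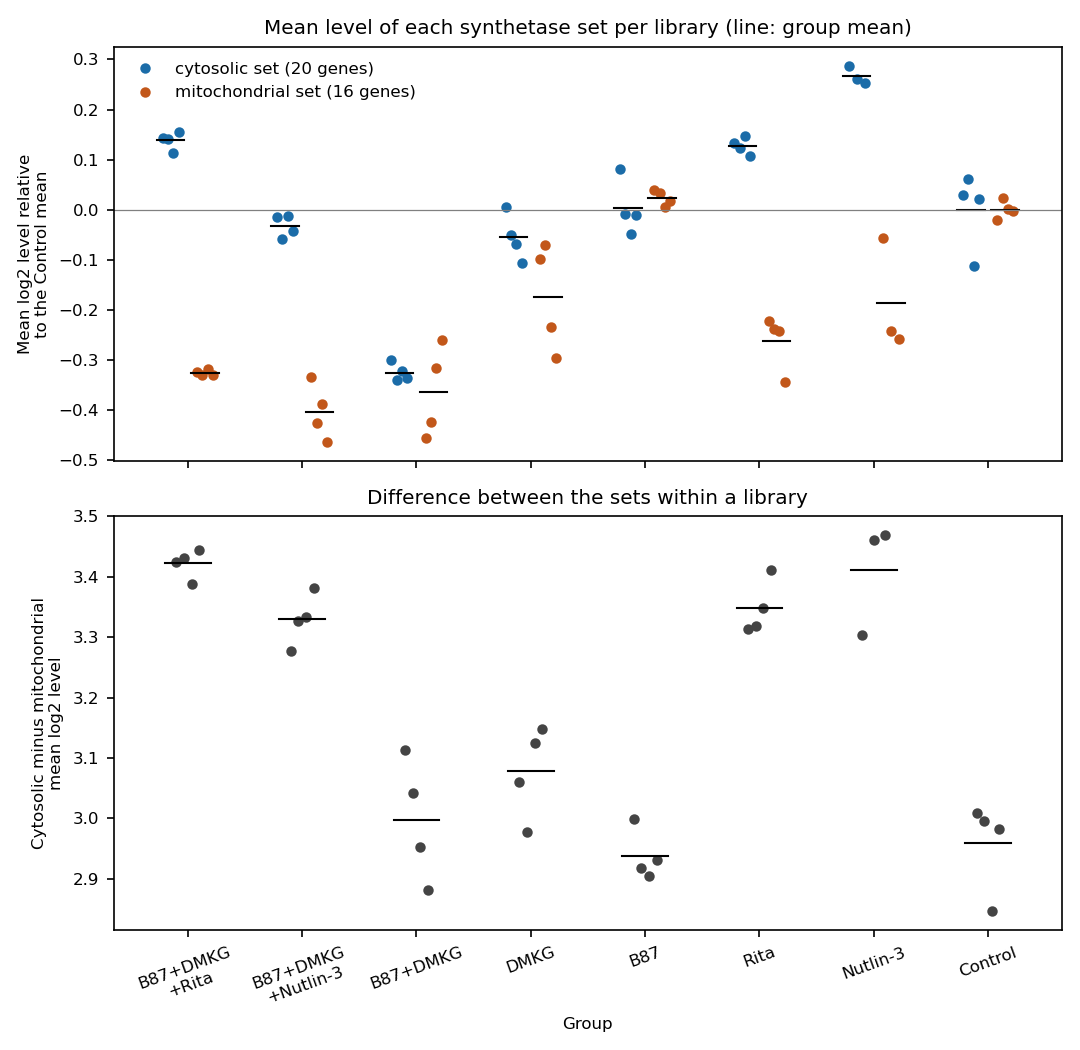
Upper panel, the mean log2 level of the 20 cytosolic (blue) and 16 mitochondrial (orange) synthetase genes in each library relative to the Control mean; lower panel, the difference between the set means within each library; lines are group means. Differences in the 4 groups with Nutlin-3 or Rita are at 3.28 or above, and those of Control end at 3.01.

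B87 + DMKG against Control asked what the combination does to these genes. Most cytosolic synthetases were lower, and the largest falls were in the mitochondrial enzymes for proline, methionine, isoleucine and asparagine. Of the 20 cytosolic genes, 14 fell and 2 rose, and of the 16 mitochondrial genes 8 fell and 2 rose, in a comparison that called 61% of all rows (30.2% higher and 30.8% lower). Libraries of the groups did not overlap in 15 cytosolic and 9 mitochondrial genes, against 51.9% of all rows. The median log2 fold change was -0.33 over the cytosolic and -0.21 over the mitochondrial genes, against 0.00 over all rows. Reads from the mitochondrial genome also made up 2.24% to 7.51% of reads in B87 + DMKG libraries, against 1.49% to 2.15% in Control. Every library with an inhibitor was above Control in this share too, at 2.47% to 3.33% in B87 + DMKG + Rita, 3.34% to 3.67% in B87 + DMKG + Nutlin-3, 2.69% to 4.76% in Rita and 2.42% to 5.39% in Nutlin-3, whereas DMKG (1.97% to 2.48%) and B87 (1.33% to 1.66%) overlapped Control. Its part in these and the later results was not tested.

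The largest change was in PARS2, the mitochondrial prolyl enzyme (chr1:55222573-55230226, hg19), a gene of low expression. It had 62.6, 98.7, 75.7 and 91.9 normalized reads in B87 + DMKG libraries, against 406, 438, 369 and 404 in Control, a log2 fold change of -2.30 ± 0.18 (adjusted p = 3.2e-12). IARS2 (chr1:220267444-220321383) had 13711, 12591, 13522 and 13399 reads in B87 + DMKG libraries, against 26852, 26800.1, 28040.1 and 28657 in Control (-1.05 ± 0.08, adjusted p = 2.5e-12). In both genes every B87 + DMKG library lay far below every Control library. MARS2, the mitochondrial methionyl enzyme (chr2:198570028-198573113), had 1355, 1623, 1367 and 1472 reads in B87 + DMKG, against 2929.8, 3202, 3308 and 3034 in Control (-1.10 ± 0.09, adjusted p = 9.1e-12). NARS2, the asparaginyl enzyme, had 647, 391, 576 and 499.8 in B87 + DMKG, against 943, 895, 1000.2 and 965 in Control (-0.87 ± 0.10, adjusted p = 1.5e-08). LARS2 (-0.56), YARS2 (-0.51), RARS2 (-0.50) and EARS2 (-0.25) also fell.

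VARS2, the mitochondrial valyl enzyme, went the other way, with 762, 908, 1250.1 and 1511 reads in B87 + DMKG, against 581, 636, 604 and 622 in Control (0.81 ± 0.14, adjusted p = 9.9e-06). Its row also names GTF2H4, another gene, so the reads may not be those of VARS2 alone. The row lies inside that of the tubulin gene TUBB, which averaged 61971 ± 4552 reads in B87 + DMKG and 70193 ± 2529.6 in Control, and whether reads are shared was not tested. FARS2 rose by 0.30, a call that was lost without Control replicate 3 (0.23) or 4 (0.27) and without B87 + DMKG replicate 2 (0.30) or 4 (0.23). B87 + DMKG replicates 3 and 4 held the highest VARS2 counts, and the groups did not overlap.

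In the cytosolic set the largest falls were in IARS and FARSB. IARS, the isoleucyl enzyme of the multi-synthetase complex (chr9:94972489-95056038), had 22498, 19440.2, 19510.4 and 18434 reads in B87 + DMKG, against 35700.3, 34024, 33920.5 and 35122 in Control (-0.80 ± 0.06, adjusted p = 1.6e-12). FARSB, the β subunit of the phenylalanyl enzyme, had 9856, 8349, 10408 and 8721 in B87 + DMKG, against 15988, 16442, 16011 and 15942 in Control (-0.79 ± 0.09, adjusted p = 1.7e-08). GARS had 17986, 17496, 16884 and 16779 in B87 + DMKG, against 29529, 29222, 22007 and 30381 in Control (-0.67 ± 0.08, adjusted p = 7.5e-09). Groups did not overlap in any of the 3 genes. RARS (-0.65), MARS (-0.59), CARS (-0.55), TARS (-0.52), DARS (-0.51) and AARS (-0.48) fell by between 0.48 and 0.65 on the log2 scale. SARS (-0.38), WARS (-0.29), EPRS (-0.26), HARS (-0.26) and QARS (-0.25) fell by less; that of QARS was lost without B87 + DMKG replicate 1 (-0.17), and that of EPRS without Control replicate 1 or 4 or B87 + DMKG replicate 3 or 4 (-0.23 to -0.18).

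FARSA, the α subunit that pairs with FARSB, rose: it had 12189, 13083, 13599 and 14628 reads in B87 + DMKG, against 9188, 10124, 9182 and 8764 in Control (0.52 ± 0.08, adjusted p = 1.5e-06). The log2 ratio of FARSA to FARSB, which no scale factor moves, was 0.31 to 0.75 in B87 + DMKG libraries and 0.23 to 0.43 in B87 + DMKG + Nutlin-3 libraries, against -0.86 to -0.70 in Control. FARSA was above FARSB in every library of both treatments and below it in every Control library. LARS was the other riser (0.25). VARS (-0.07), KARS (-0.02), YARS (0.00) and NARS (-0.19; called without B87 + DMKG replicate 2, at -0.30) did not pass the test.

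DMKG against Control asked what 1 part of the combination does. Of the cytosolic set 4 fell and 1 rose, and of the mitochondrial set 7 fell and 3 rose, in a comparison that called 41.4% of all rows (19.6% higher and 21.8% lower). The groups were free of overlap in 4 cytosolic and 8 mitochondrial genes, against 39.6% of all rows. The set medians were -0.06 and -0.18, against 0.03 over all rows. Which set held more calls depended on the processing. Under quantile normalization the cytosolic set held 1 rise and 9 falls and the mitochondrial set 3 and 4, and with equal library totals each held 1 rise and 9 falls. Without Control replicate 3 the cytosolic set held 1 rise and 6 falls and the mitochondrial set 2 and 4. Over both sets, equal totals gave 2 rises and 18 falls, against 4 and 11 here, and the mitochondrial falls numbered 4 without Control replicate 2, 3 or 4 or DMKG replicate 3 or 4. PARS2 had 129, 139, 121 and 78.5 reads in DMKG, against 406, 438, 369 and 404 in Control (-1.81 ± 0.18, adjusted p = 1.2e-09) with no overlap. MARS2 had 1885, 2023, 1565 and 1578 in DMKG, against 2929.8, 3202, 3308 and 3034 in Control (-0.83 ± 0.09, adjusted p = 7.3e-09). DMKG replicates 3 and 4 lay below replicates 1 and 2 in MARS2, and the groups did not overlap. VARS2 rose (0.44; 0.39 and lost without DMKG libraries 3 and 4). WARS2, the mitochondrial tryptophanyl enzyme, rose as well, with 439.8, 443, 425 and 398 reads in DMKG, against 296, 296, 298 and 320.4 in Control (0.49 ± 0.11, adjusted p = 3.7e-04).

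IARS2, which fell with B87 + DMKG, was slightly higher with DMKG alone: it had 35561, 33753, 29738 and 28106 reads in DMKG, against 26852, 26800.1, 28040.1 and 28657 in Control (0.20 ± 0.08, adjusted p = 0.045), with overlap, and the call was lost without any 1 Control library (0.18 to 0.22) and without DMKG replicate 1 (0.14) or 2 (0.17). AARS, the alanyl enzyme, had 10803, 10689, 10509 and 11314 reads in DMKG, against 16119.8, 16321, 12427 and 15994 in Control (-0.48 ± 0.08, adjusted p = 5.6e-06), a fall as large as with the combination (-0.48). DARS, the aspartyl enzyme of the complex, rose with DMKG (0.38) and fell with the combination (-0.51). TARS (-0.35), CARS (-0.35) and RARS (-0.24; -0.18 and lost without DMKG replicate 4) fell. Without DMKG libraries 3 and 4, the mitochondrial falls numbered 3 rather than 7, since RARS2, YARS2, LARS2 and HARS2 no longer passed, and without libraries 1 and 2 the cytosolic falls numbered 7 rather than 4.

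B87 alone changed no member by limma at the adjusted threshold, in a comparison that called 0.0431% of all rows (0.0308% higher and 0.0123% lower); 1 of the 36 passed at an unadjusted p under 0.05, WARS2, and edgeR and DESeq2 called 0. Libraries of B87 and Control did not overlap in 3 mitochondrial genes and 0 cytosolic genes, against 7.09% of all rows. Log2 fold changes ran from -0.20 (AARS2) to 0.25 (WARS2). IARS2 had 28140.1, 28213, 26945 and 28551 reads in B87, against 26852, 26800.1, 28040.1 and 28657 in Control, and PARS2 had 422, 358, 321 and 488 in B87, against 406, 438, 369 and 404 in Control. Both B87 groups overlapped Control.

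The combination went beyond the sum of its parts in many members. The difference of effects, (B87 + DMKG minus DMKG) minus (B87 minus Control), was negative and called for 10 cytosolic and 6 mitochondrial genes and positive and called for 1 and 3, in a comparison that called 48.8% of all rows (24.6% higher and 24.1% lower). The set medians were -0.30 and -0.20, against 0.02 over all rows. IARS2 had the largest negative value, -1.27 ± 0.11 (adjusted p = 2.4e-10), followed by DARS (-0.91), WARS2 (-0.91), NARS2 (-0.87), FARSB (-0.74), IARS (-0.72) and GARS (-0.68). FARSA (0.76) and AARS2 (0.56) were positive. PARS2 did not pass (-0.45; called without DMKG replicate 4, at -0.63). Without DMKG libraries 1 and 2 the mitochondrial negatives numbered 3 rather than 6. Under the same total in every library 6 members were positive and 11 negative, and under quantile normalization 6 and 13, against 4 and 16 here.

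**Figure D3:**
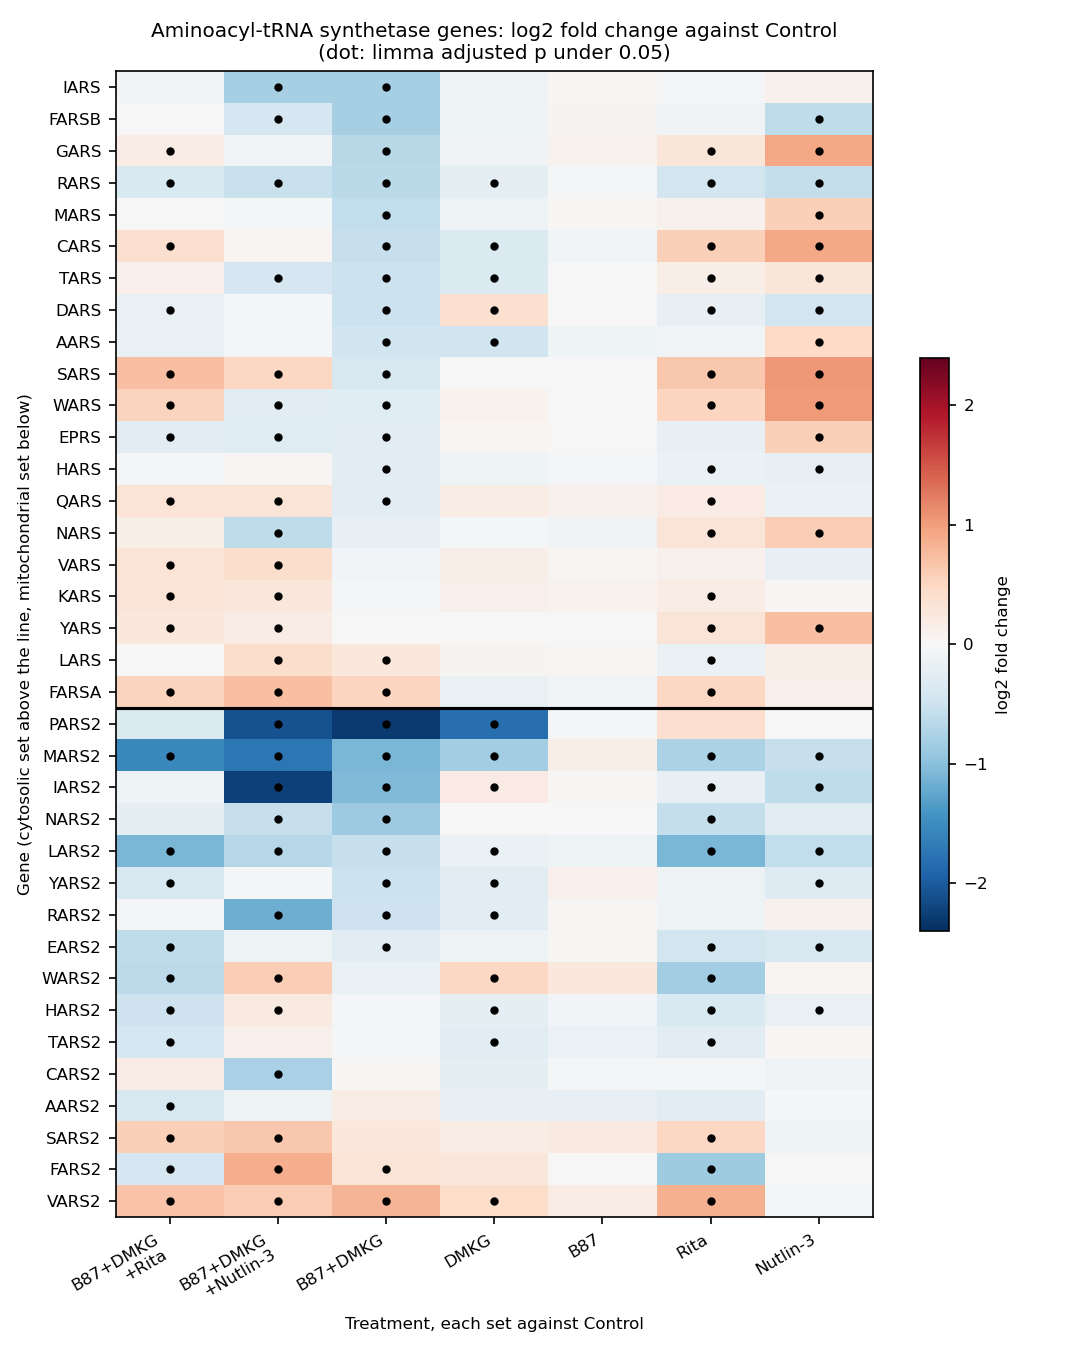
Log2 fold change of each synthetase gene (rows; cytosolic above the line, mitochondrial below, each sorted by B87 + DMKG) in the 7 treatments against Control (columns), with a dot where limma's adjusted p was under 0.05. The B87 + DMKG column is mostly blue with 22 falls, the B87 column has no dot, and the cytosolic rows of the Nutlin-3 column hold its 10 rises.

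Nutlin-3 against Control asked what MDM2 inhibition does without the metabolic treatment. It split the cytosolic set: 10 genes rose and 4 fell, whereas no mitochondrial gene rose and 6 fell, in a comparison that called 39.1% of all rows (18.5% higher and 20.7% lower). No overlap between the groups was seen in 15 cytosolic and 6 mitochondrial genes, against 41.9% of all rows. At an unadjusted p under 0.05, and by edgeR and DESeq2, 7 mitochondrial genes were lower and 0 higher. The set medians were 0.23 and -0.09, against -0.01 over all rows. All 10 risers were among the 13 ATF4-linked members (median 0.57), and the 4 that fell were among the 7 other cytosolic genes (median -0.19); both lists were chosen with earlier results of these data known. Leaving out Control replicate 3 left these counts at 10 and 4. They became 10 and 6 without Nutlin-3 replicate 1, with equal library totals, or under quantile normalization. In each of these settings 1 ATF4-linked member and 5 of the 7 other cytosolic genes fell. The 10 rises stayed among the ATF4-linked members.

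SARS, the seryl enzyme (chr1:109756515-109780803), had 19943, 17416 and 17796 reads in Nutlin-3 libraries, against 9438, 10103, 7298 and 8988 in Control (1.05 ± 0.08, adjusted p = 4.0e-11). WARS, the tryptophanyl enzyme, also known as an interferon-induced gene (chr14:100800125-100843142), had 40696, 38911 and 40476 in Nutlin-3, against 20661, 21152, 17478 and 20267 in Control (1.01 ± 0.06, adjusted p = 1.3e-14). Every Nutlin-3 library lay far above every Control library in both genes. CARS, the cysteinyl enzyme, had 7051, 7280.2 and 6579 in Nutlin-3, against 3823, 4131, 2801 and 3952 in Control (0.94 ± 0.09, adjusted p = 1.8e-09). GARS had 49537, 54353 and 52592 in Nutlin-3, against 29529, 29222, 22007 and 30381 in Control (0.92 ± 0.08, adjusted p = 3.7e-10). YARS (0.73), NARS (0.59), EPRS (0.57), MARS (0.57), AARS (0.48) and TARS (0.29) rose as well. The MARS row overlaps that of DDIT3, a target of ATF4, by 981 bases. DDIT3 averaged 292 ± 49.1 reads in Nutlin-3 and 97.6 ± 43.5 in Control. MARS averaged 23775 ± 2797 in Nutlin-3 and 15995 ± 1699 in Control, and whether reads are shared was not tested.

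The cytosolic falls were in FARSB, RARS, DARS and HARS. FARSB had 10918, 10873 and 9779 reads in Nutlin-3, against 15988, 16442, 16011 and 15942 in Control (-0.61 ± 0.10, adjusted p = 1.4e-05). RARS, the arginyl enzyme of the complex, had 9674, 9243 and 9018 in Nutlin-3, against 13176, 14465, 14321 and 13539 in Control (-0.57 ± 0.09, adjusted p = 3.4e-06). DARS fell by 0.45 on the log2 scale (adjusted p = 1.5e-05), and the fall of HARS (-0.19) was lost without Control replicate 2 (-0.18) and without Nutlin-3 replicate 2 (-0.19) or 3 (-0.11). IARS, LARS, KARS, FARSA, QARS and VARS did not pass, with values from -0.20 to 0.17. In the mitochondrial set IARS2 had 19392, 18211 and 16739.5 reads in Nutlin-3, against 26852, 26800.1, 28040.1 and 28657 in Control (-0.61 ± 0.09, adjusted p = 1.6e-06). LARS2 had 1722, 1894 and 1716 in Nutlin-3, against 2572, 2689, 2710.4 and 2695 in Control (-0.59 ± 0.07, adjusted p = 1.7e-07). MARS2 (-0.55), EARS2 (-0.39), YARS2 (-0.31) and HARS2 (-0.18) fell, and PARS2 did not pass (0.00), with groups that overlapped. The calls of YARS2 and HARS2 each rested on single libraries: that of YARS2 was lost without Control replicate 3 or 4 or Nutlin-3 replicate 2 or 3 (-0.31 to -0.22), and that of HARS2 without Control replicate 1, 2 or 4 or Nutlin-3 replicate 1 or 3 (-0.19 to -0.16).

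Rita against Control asked the same of the other inhibitor, and mitochondrial enzymes held its largest changes. Of the cytosolic genes 10 rose and 4 fell, and of the mitochondrial genes 2 rose and 9 fell, in a comparison that called 52.1% of all rows (25.8% higher and 26.3% lower). Rita and Control libraries did not overlap in 13 cytosolic and 12 mitochondrial genes, against 53% of all rows. The direction of the cytosolic set depended on the scaling: it held 4 rises and 8 falls with the same total in every library, and 5 and 7 under quantile normalization. Its median lay 0.11 above that of all rows here and with equal totals, and 0.02 below it under quantile normalization. The mitochondrial median lay 0.29 to 0.31 below that of all rows under the 3 scalings.

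SARS had 13817, 14762, 13713 and 13718 reads in Rita libraries, against 9438, 10103, 7298 and 8988 in Control (0.65 ± 0.08, adjusted p = 3.2e-08). CARS had 5318, 5491, 5447 and 5260.5 in Rita, against 3823, 4131, 2801 and 3952 in Control (0.56 ± 0.08, adjusted p = 1.4e-06). WARS had 27546, 27687, 28552 and 29003 in Rita, against 20661, 21152, 17478 and 20267 in Control (0.51 ± 0.05, adjusted p = 2.8e-09). These genes also led the rises with Nutlin-3, where the log2 fold changes were 1.05, 0.94 and 1.01; Rita and Nutlin-3 share the Control libraries and were not tested against each other. FARSA rose with Rita (0.49), and RARS fell (-0.44). EPRS, which rose with Nutlin-3, did not pass with Rita (-0.21), and was called lower there with the same total in every library (-0.38) and under quantile normalization (-0.33).

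LARS2, the mitochondrial leucyl enzyme (chr3:45430056-45590328), had 1319.8, 1216, 1320.5 and 1119.7 reads in Rita, against 2572, 2689, 2710.4 and 2695 in Control (-1.10 ± 0.07, adjusted p = 2.1e-14). FARS2, a single-chain phenylalanyl enzyme, had 217, 219, 239.7 and 209 in Rita, against 469, 423, 347 and 377 in Control (-0.86 ± 0.12, adjusted p = 9.6e-07). WARS2 had 173, 156, 194 and 156 in Rita, against 296, 296, 298 and 320.4 in Control (-0.84 ± 0.11, adjusted p = 9.8e-08). None of the Rita libraries reached Control in these 3 genes. MARS2 (-0.76), NARS2 (-0.57), EARS2 (-0.45), HARS2 (-0.37), TARS2 (-0.27) and IARS2 (-0.19) also fell; that of IARS2 was lost without any 1 Control library (-0.20 to -0.17) and without Rita replicate 3 (-0.20) or 4 (-0.09). VARS2 had 1137, 1185, 1122 and 959 reads in Rita, against 581, 636, 604 and 622 in Control (0.84 ± 0.14, adjusted p = 7.2e-06), while the enclosing TUBB row was lower, at 43452 ± 1767 in Rita and 70193 ± 2529.6 in Control. SARS2 rose (0.50) in a row it shares with FBXO17, as VARS2 shares its row with GTF2H4.

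**Figure D4:**
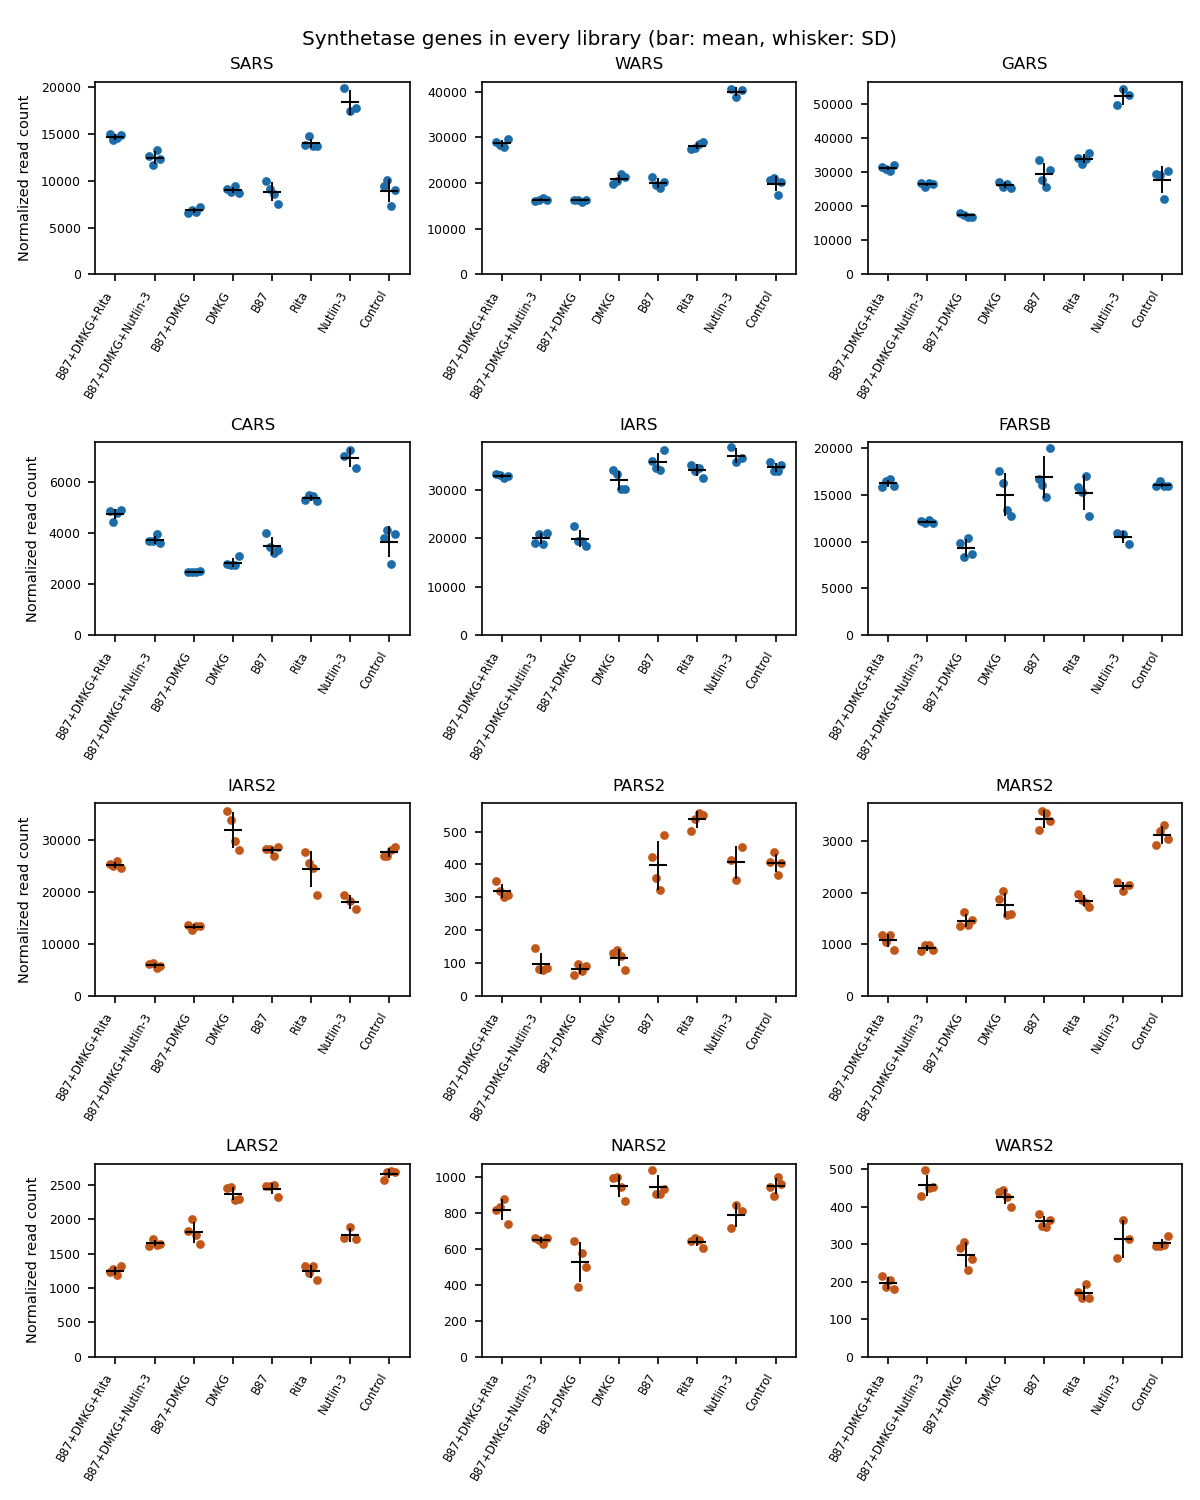
Normalized read count of 12 synthetase genes (6 cytosolic in blue, 6 mitochondrial in orange) in every library of the 8 groups, with group mean (bar) and SD (whisker); each axis starts at 0. SARS, WARS, GARS and CARS are highest in Nutlin-3, and IARS2 is lowest in B87 + DMKG + Nutlin-3, at 5875 ± 435 reads, against 27587 ± 915 in Control.

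Adding Nutlin-3 to B87 + DMKG asked whether the inhibitor shifts the response. Set against B87 + DMKG, 14 cytosolic genes were higher and 1 lower, and 6 mitochondrial genes were higher and 4 lower, in a comparison that called 58.9% of all rows (26.5% higher and 32.3% lower). Libraries with and without Nutlin-3 were apart in 12 cytosolic and 8 mitochondrial genes, against 47.7% of all rows. The split was 13 higher and 8 lower with the same total in every library and 18 and 5 under quantile normalization, against 20 and 5 here. In the mitochondrial set the same total turned it to 3 higher and 6 lower, while quantile normalization gave 7 and 4. The set medians were 0.28 and 0.15, against -0.05 over all rows. SARS had 12625, 11697, 13292 and 12335 reads in B87 + DMKG + Nutlin-3, against 6616, 6890.3, 6659 and 7219 in B87 + DMKG (0.87 ± 0.08, adjusted p = 1.2e-10), and GARS (0.61), CARS (0.59), MARS (0.57), QARS (0.56), VARS (0.49) and DARS (0.47) were higher.

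Mitochondrial isoleucyl-tRNA synthetase went further down. IARS2 had 6194, 6272, 5356 and 5679 reads in B87 + DMKG + Nutlin-3, against 13711, 12591, 13522 and 13399 in B87 + DMKG (-1.18 ± 0.08, adjusted p = 2.2e-13) and 26852, 26800.1, 28040.1 and 28657 in Control (-2.23 ± 0.08, adjusted p = 1.3e-20). The 3 groups did not overlap one another. CARS2 had 1262, 1133, 1158 and 1082 reads in B87 + DMKG + Nutlin-3, against 1726, 1764, 2199 and 2507 in B87 + DMKG (-0.81 ± 0.12, adjusted p = 9.0e-07), whereas it did not pass against Control with B87 + DMKG (0.03) or with Nutlin-3 (-0.08; called without Nutlin-3 replicate 1, at -0.29). RARS2 (-0.68) and MARS2 (-0.64) were lower as well, NARS was the cytosolic gene that was lower (-0.43), and PARS2 did not pass (0.22; called higher under quantile normalization, at 0.70). WARS2 had 429, 497, 449.9 and 452 reads in B87 + DMKG + Nutlin-3, against 289.8, 305, 231 and 261 in B87 + DMKG (0.75 ± 0.11, adjusted p = 5.5e-07), and FARS2 (0.57) and YARS2 (0.48) were higher too.

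Against Control, B87 + DMKG + Nutlin-3 raised 7 and lowered 7 cytosolic genes, and raised 5 and lowered 7 mitochondrial genes, in a comparison that called 58% of all rows (28.3% higher and 29.7% lower). These libraries and those of Control were apart in 12 cytosolic and 13 mitochondrial genes, against 58.1% of all rows. With the same total in every library the split over both sets was 8 higher and 18 lower, against 12 and 14 here. IARS had 19134, 20989, 18825 and 21052 reads in B87 + DMKG + Nutlin-3, against 35700.3, 34024, 33920.5 and 35122 in Control (-0.80 ± 0.06, adjusted p = 7.8e-13), and did not pass against B87 + DMKG (0.00), where it averaged 19971 ± 1755. FARSA had 16081, 14006, 16553 and 14669.8 in B87 + DMKG + Nutlin-3, against 9188, 10124, 9182 and 8764 in Control (0.72 ± 0.08, adjusted p = 4.5e-09). NARS (-0.61), RARS (-0.53) and FARSB (-0.41) fell, and SARS rose (0.49). Of the mitochondrial genes, PARS2 (-2.08), MARS2 (-1.74) and RARS2 (-1.18) fell beside IARS2, and FARS2 rose, with 854, 646, 769.6 and 697 reads in B87 + DMKG + Nutlin-3, against 469, 423, 347 and 377 in Control (0.88 ± 0.12, adjusted p = 4.7e-07).

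Adding Rita to B87 + DMKG asked the same of the other inhibitor. Most cytosolic genes were higher here, and fewer were with other scalings. The cytosolic split was 9 higher and 3 lower with the same total in every library, and 10 and 2 under quantile normalization. Set against B87 + DMKG, 17 cytosolic genes were higher and 1 lower, and 5 mitochondrial genes were higher and 8 lower, in a comparison that called 67.3% of all rows (33.1% higher and 34.2% lower). Libraries with and without Rita were apart in 17 cytosolic and 12 mitochondrial genes, against 59.3% of all rows. With the same total in every library the split was 12 higher and 12 lower, and under quantile normalization 14 and 9, against 22 and 9 here, while the cytosolic median stayed above that of all rows under each scaling (by 0.36 here and with equal totals, and by 0.10 under quantile normalization). PARS2 had 351, 320.0, 301 and 306 reads in B87 + DMKG + Rita, against 62.6, 98.7, 75.7 and 91.9 in B87 + DMKG (1.96 ± 0.18, adjusted p = 5.3e-11). IARS2 had 25393, 24975, 25933 and 24522 in B87 + DMKG + Rita, against 13711, 12591, 13522 and 13399 in B87 + DMKG (0.92 ± 0.08, adjusted p = 2.3e-11). NARS2 (0.65) and RARS2 (0.46) were higher too. Each of these 4 genes had fallen with B87 + DMKG, and with Rita added none passed the test against Control (PARS2 -0.34, IARS2 -0.13, NARS2 -0.22 and RARS2 -0.03). Every B87 + DMKG + Rita library nonetheless lay below every Control library in PARS2, IARS2 and NARS2, while RARS2 overlapped, and edgeR and DESeq2 called NARS2 lower. With the same total in every library all 4 were called lower than Control (-0.59, -0.39, -0.47 and -0.29), and RARS2 no longer passed against B87 + DMKG (0.22). The comparisons share libraries, so the values are set side by side.

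MARS2 and LARS2 did not follow them. MARS2 had 1179.7, 1048, 1179 and 899 reads in B87 + DMKG + Rita, against 1355, 1623, 1367 and 1472 in B87 + DMKG (-0.44 ± 0.09, adjusted p = 7.4e-05). LARS2 had 1238, 1276, 1184 and 1318 in B87 + DMKG + Rita, against 1827, 2011, 1769.5 and 1641 in B87 + DMKG (-0.53 ± 0.07, adjusted p = 4.6e-08). FARS2 (-0.70), AARS2 (-0.56), WARS2 (-0.46) and HARS2 (-0.45) were lower as well. In the cytosolic set SARS had 14973, 14359.5, 14578 and 14919 reads in B87 + DMKG + Rita, against 6616, 6890.3, 6659 and 7219 in B87 + DMKG (1.10 ± 0.08, adjusted p = 2.6e-13). CARS (0.94), GARS (0.85), WARS (0.83), FARSB (0.81), IARS (0.73) and TARS (0.64) were higher by 0.64 to 0.94, LARS was lower (-0.24), and EPRS and FARSA did not pass (-0.01 and 0.01; both were called lower with equal library totals, at -0.25 and -0.23).

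Against Control, B87 + DMKG + Rita raised 9 and lowered 3 cytosolic genes, and raised 2 and lowered 9 mitochondrial genes, in a comparison that called 60.1% of all rows (29.4% higher and 30.7% lower). Treated and Control libraries were apart in 13 cytosolic and 13 mitochondrial genes, against 63.9% of all rows. The cytosolic split turned to 3 higher and 10 lower with the same total in every library, and to 4 and 8 under quantile normalization. SARS (0.73 ± 0.08), WARS (0.54 ± 0.05) and FARSA (0.53 ± 0.08) led the rises, and RARS fell (-0.37 ± 0.08). MARS2 (-1.54 ± 0.09), LARS2 (-1.09 ± 0.07), WARS2 (-0.62 ± 0.11), EARS2 (-0.60 ± 0.08) and HARS2 (-0.50 ± 0.06) led the mitochondrial falls, and VARS2 (0.68 ± 0.14) and SARS2 (0.58 ± 0.13) rose.

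The effect of each inhibitor differed between cells with and without B87 + DMKG. For Nutlin-3 the difference was called and positive in 15 members and negative in 9, in a comparison that called 56.9% of all rows (26.4% higher and 30.6% lower). The cytosolic set held 7 positive and 6 negative differences (median -0.02), and the mitochondrial set 8 and 3 (median 0.33). The median over all rows was -0.06. WARS had an effect of 0.01 with B87 + DMKG (-0.13 and called with the same total in every library) and 1.01 without (adjusted p of the difference = 1.8e-11), and NARS an effect of -0.43 with and 0.59 without (-1.01 ± 0.16, adjusted p = 5.6e-06). EPRS (-0.60) and YARS (-0.56) also had negative differences, and SARS, MARS, AARS and TARS did not pass, at -0.18, 0.00, -0.05 and -0.17. TARS was called without Nutlin-3 replicate 1 (-0.23). The ATF4-linked genes thus ran from -1.01 (NARS) to 0.70 (VARS). FARSB (1.00), DARS (0.92), QARS (0.73) and RARS (0.70) had positive differences.

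For Rita the difference was positive in 20 members and negative in 2, in a comparison that called 48.6% of all rows (24.2% higher and 24.4% lower). The largest were in PARS2 (1.55 ± 0.25, adjusted p = 7.5e-06), NARS2 (1.22 ± 0.14, adjusted p = 5.6e-08) and IARS2 (1.11 ± 0.11, adjusted p = 4.2e-09) of the mitochondrial set, and in FARSB (0.89 ± 0.13), IARS (0.75 ± 0.08) and RARS (0.73 ± 0.11) of the cytosolic set. VARS2 (-0.97) and FARSA (-0.48) were negative; VARS2 had an effect of -0.12 with B87 + DMKG (-0.37 and called with the same total in every library) and 0.84 without. SARS, CARS and WARS, which rose with Rita on its own, had positive differences too (0.45, 0.37 and 0.32; that of CARS was lost under quantile normalization, at 0.27).

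**Figure D5:**
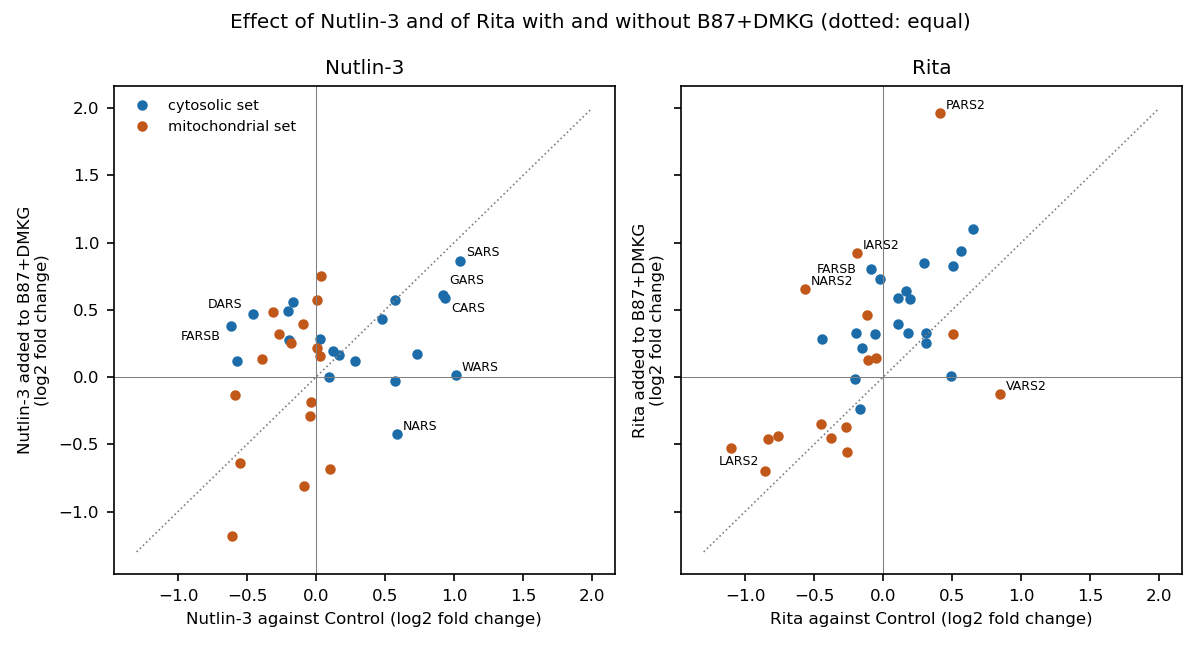
Log2 fold change of each synthetase gene when Nutlin-3 (left) or Rita (right) was added to B87 + DMKG (vertical axis), plotted against that of the inhibitor on its own against Control (horizontal axis); cytosolic genes are blue, mitochondrial genes orange, and equal effects lie on the dotted line. WARS and NARS lie far below the line for Nutlin-3, and PARS2, IARS2 and NARS2 far above it for Rita.

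Ratios between the cytosolic and mitochondrial enzyme for the same amino acid give the contrast gene by gene, and no scale factor moves them. Of 13 such pairs, 7 ratios lay above every Control library and 2 below in B87 + DMKG + Rita. The counts were 5 and 4 in B87 + DMKG + Nutlin-3, 4 and 4 in B87 + DMKG and 2 and 3 in DMKG. They were 0 and 1 in B87, 8 and 2 in Rita and 8 and 2 in Nutlin-3. No such count was made for other pairs of genes. The log2 ratio of WARS to WARS2 was 7.07 to 7.35 in B87 + DMKG + Rita, 7.19 to 7.53 in Rita and 6.74 to 7.27 in Nutlin-3, against 5.87 to 6.15 in Control, and in B87 + DMKG + Nutlin-3 it was lower than Control, at 5.03 to 5.23. MARS to MARS2 was 4.01 to 4.12 in B87 + DMKG + Nutlin-3 and 3.75 to 4.15 in B87 + DMKG + Rita, against 2.02 to 2.50 in Control. IARS to IARS2 was 1.63 to 1.89 in B87 + DMKG + Nutlin-3, against 0.27 to 0.41 in Control. It was 0.97 to 1.13 in Nutlin-3, 0.46 to 0.71 in B87 + DMKG and -0.06 to 0.10 in DMKG. The isoleucyl pair thus parted most in B87 + DMKG + Nutlin-3, and next in Nutlin-3. VARS to VARS2 went the other way, at 3.60 to 3.65 in Rita and 3.32 to 3.76 in B87 + DMKG, against 4.34 to 4.40 in Control. The VARS2 row also names GTF2H4. LARS to LARS2 was higher in all 6 treatments other than B87, from 1.48 to 1.67 in DMKG to 2.31 to 2.57 in B87 + DMKG + Nutlin-3, against 1.30 to 1.41 in Control.

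RARS, LARS2 and MARS2 were the members called lower against Control in all 6 treatments other than B87, comparisons that share the Control libraries. Each comparison called 20.7% (Nutlin-3) to 30.8% (B87 + DMKG) of all rows lower. The share of all rows lower in all 6 was not counted, so whether these members stand out is not known. For LARS2 the log2 fold changes were -1.09 (B87 + DMKG + Rita), -0.69 (B87 + DMKG + Nutlin-3), -0.56 (B87 + DMKG), -0.17 (DMKG), -1.10 (Rita) and -0.59 (Nutlin-3). MARS2 gave -1.54, -1.74, -1.10, -0.83, -0.76 and -0.55 in the same order. RARS gave -0.37, -0.53, -0.65, -0.24, -0.44 and -0.57. Leaving out DMKG libraries 3 and 4 ended the DMKG calls of RARS (-0.15) and LARS2 (-0.11), and that of LARS2 was also lost without Control replicate 2, 3 or 4 or DMKG replicate 3 or 4 (-0.16 to -0.15).

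The genes that serve both compartments behaved differently from each other. KARS, the lysyl enzyme, had 21296, 20248, 19337 and 18413 reads in B87 + DMKG, against 19843, 20879.8, 20380.2 and 19188 in Control, where it did not pass. It rose in B87 + DMKG + Rita (0.31), B87 + DMKG + Nutlin-3 (0.26) and Rita (0.18). In these comparisons an equal total in every library moved the median of all rows by -0.25, -0.16 and -0.17. With equal totals, 1 rather than 3 of the 7 cytosolic genes not linked to ATF4, which include KARS, rose in each. GARS fell with B87 + DMKG, rose with Nutlin-3 and was -0.08 with DMKG, so its range over the treatments was the wider. QARS, for which no mitochondrial counterpart exists in these sets, was higher against B87 + DMKG with either inhibitor added (0.58 with Rita and 0.56 with Nutlin-3). HARS2 and HARS, whose rows overlap, took opposite directions with Rita added to B87 + DMKG (-0.45 and 0.22; HARS was at -0.03 with the same total in every library). AARS2, the mitochondrial alanyl enzyme, was called against Control in B87 + DMKG + Rita alone of the 7 treatments (-0.39), and TARS2, the threonyl enzyme, fell in B87 + DMKG + Rita (-0.42), DMKG (-0.26) and Rita (-0.27).

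Genes around the synthetases give the setting. ATF4 had 28312, 29136, 30640.0 and 31477 reads in B87 + DMKG, against 51776, 56855, 40947 and 50284 in Control (-0.73, adjusted p = 6.1e-10), and it was higher in Nutlin-3 (0.58) and Rita (0.49) and, against B87 + DMKG, in B87 + DMKG + Nutlin-3 (0.55) and B87 + DMKG + Rita (1.40). DDIT3 gave -0.93 in B87 + DMKG, 1.72 in Nutlin-3 and 2.03 in Rita, each against Control. It had 43.6, 46.7, 40.1 and 50.5 reads in B87 + DMKG, against 113, 134, 34.6 and 108 in Control. Control replicate 3 lay below every B87 + DMKG library, so these groups overlap in a row of low counts. Of 27 genes of the ATF4 pathway and amino acid supply, 23 fell with B87 + DMKG (median -0.96), in a comparison that called 30.8% of all rows lower and 30.2% higher (median 0.00). Among the falls were CHAC1, a glutathione-degrading enzyme (-6.02), SLC38A2, a neutral amino acid transporter (-3.07), TRIB3, a pseudokinase that restrains ATF4 (-2.24), and SESN2, a leucine sensor (-2.18). With Nutlin-3 18 rose and 2 fell (median 0.62), where 18.5% of all rows rose and 20.7% fell. With Rita added to B87 + DMKG 23 were higher and 2 lower (median 1.28), where 33.1% of all rows were higher and 34.2% lower. ASNS, asparagine synthetase, had 16414 ± 747 reads in B87 + DMKG + Rita and 2252 ± 314 in B87 + DMKG (SD, n = 4 each; 2.88).

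Scaffold and translation partners moved unevenly. With B87 + DMKG, AIMP1 (-0.62) and EEF1E1 (-0.61) fell and AIMP2 did not pass (0.01), and the 8 synthetases of the complex had 6 falls and 1 rise (median -0.39), against 8 and 1 of the 12 free ones (median -0.33). That is 87.5% and 75% of these short lists called, where 61% of all rows were called, and the lists were not tested against each other. With B87 + DMKG + Rita, set against B87 + DMKG, AIMP1 (0.85), AIMP2 (0.55) and EEF1E1 (0.80) were all higher, whereas with B87 + DMKG + Nutlin-3 EEF1E1 was lower (-0.74). Of 15 mitochondrial translation factors, 10 fell with B87 + DMKG (median -0.31). The 66.7% called is near the 61% called of all rows, though 30.8% of all rows were called lower. The falls were led by GUF1, a mitochondrial elongation factor (-1.48), which was lower still against Control in B87 + DMKG + Nutlin-3 (-2.22) and did not pass in B87 + DMKG + Rita (-0.27). QRSL1, a subunit of the complex that makes glutaminyl-tRNA in mitochondria from the product of EARS2, fell with B87 + DMKG (-0.60). Of 7 cytosolic elongation factor genes 3 fell and 1 rose, and of 23 genes of tRNA processing and modification 7 fell and 7 rose (median -0.03), which makes 57.1% and 60.9% called, close to the 61% of all rows.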

How the data were processed

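Per the labels, poly(A) RNA was extracted with a Qiagen RNeasy Plus Micro kit and made into TruSeq stranded libraries. Per the submitters' processing notes, STAR 2.4.0, FastQC, Picard, SAMtools and DESeq2 were used; the table's header names hg19 whereas the notes name mm10, and the genes are human. The deposited values are signal: read counts per gene that the authors divided by DESeq2 size factors, from which whole reads were recovered for edgeR and DESeq2 tests. Differences were tested with limma 3.58.1 in R 4.3.3 (empirical Bayes with trend) on log2(value + 1) over 16259 rows with a mean of at least 10, all 31 libraries by group, with Benjamini-Hochberg adjustment over all rows; a call has an adjusted p under 0.05. The test was run on simulated data first. The members and gene lists were chosen with earlier results of these data known. Up to 5 called members per set with the largest changes in a comparison are given in full, and any member may be named. Alternatives were other pseudocounts, filters and scalings, edgeR 4.0.16, DESeq2 1.42.0, a replicate block and each library left out. Depth was 33.4 to 82.5 M reads per library. Lengths came from GENCODE v29 by symbol, over all annotated exons of a gene.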

Additional observations from a re-analysis of the deposited data

Results flagged for a closer look

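In groups of 4 libraries, the highest or lowest library was set apart where its gap to the next, divided by the range, was above Dixon's 95% critical value; chance gives about 1 in 20 groups, and 16 of 252 groups of the 36 genes met it. In Control, replicate 3 was the low one for AARS (12427 normalized reads), GARS (22007) and MARS (13466), whose other Control libraries lay close together, and for RARS2 it had 2734 reads. Control replicate 2 was the high one for FARSB (16442) and HARS (10511), Control replicate 1 was the low one for LARS2 (2572), and Control replicate 4 was the high one for WARS2 (320.4). In B87, replicate 4 stood apart for NARS (7160.2), LARS2 (2324) and RARS2 (2976). In Rita, replicate 4 stood apart for NARS (12109.5) and SARS2 (2521), and replicate 2 for SARS (14762). In B87 + DMKG + Rita, replicate 2 stood apart for FARS2 (356), and in B87 + DMKG + Nutlin-3, replicate 1 for PARS2 (145).

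Some genes took opposite directions with an inhibitor in cells with and without B87 + DMKG, with both effects called and the difference itself called by limma. For Nutlin-3 the effect on DARS was 0.47 with B87 + DMKG and -0.45 without (difference 0.92), on FARSB 0.38 and -0.61 (1.00), on HARS 0.28 and -0.19 (0.47), on HARS2 0.25 and -0.18 (0.44) and on YARS2 0.48 and -0.31 (0.79). NARS was the case of the other sign, at -0.43 with B87 + DMKG and 0.59 without (-1.01). For Rita the effect on DARS was 0.33 with B87 + DMKG and -0.20 without (0.53), on HARS 0.22 and -0.15 (0.37), on RARS 0.29 and -0.44 (0.73), on IARS2 0.92 and -0.19 (1.11) and on NARS2 0.65 and -0.57 (1.22).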

How the results depend on the processing

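Of 257 calls of a synthetase gene over the 12 comparisons (432 tests), 187 held under every alternative and 70 were lost under at least 1, of which 4 were lost only when a single library was left out. Quantile normalization lost 37 and gained 26, the same total in every library lost 42 and gained 40, no filter on low values lost 23 and gained 0, fitting the compared groups alone lost 18 and gained 10, edgeR on whole reads lost 5 and gained 6, DESeq2 on whole reads lost 4 and gained 5, and the pseudocounts and the higher minimum changed at most 3. Without a filter more rows were tested, and with fewer groups fewer libraries were fitted. The cause of the changed calls was not tested. A minimum absolute log2 fold change of 1 left 1 gene with DMKG, 3 with B87 + DMKG, 2 with Nutlin-3, 1 with Rita, 4 with B87 + DMKG + Nutlin-3 and 2 with B87 + DMKG + Rita against Control, 1 with Nutlin-3 and 2 with Rita added to B87 + DMKG, 1 beyond additive, and 1 (Nutlin-3) and 3 (Rita) for the effects with minus without B87 + DMKG. Leaving out 1 library at a time gave 11 to 14 calls for DMKG, 0 to 0 for B87, 24 to 27 for B87 + DMKG, 17 to 23 for Nutlin-3, 20 to 22 for Rita, 24 to 26 for B87 + DMKG + Nutlin-3 and 20 to 23 for B87 + DMKG + Rita against Control, 22 to 27 with Nutlin-3 and 30 to 31 with Rita added to B87 + DMKG, 19 to 21 beyond additive, and 22 to 25 (Nutlin-3) and 20 to 22 (Rita) for the effects with minus without. For B87 the count of all rows called was 7, and 14 with only the groups compared, 30 by DESeq2, 4 without B87 replicate 1, 2 without B87 replicate 4, 4 without Control replicate 1, 2 without Control replicate 2 and 4 without Control replicate 3.

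Signs turned under a scaling for these genes, on the log2 scale: TARS with Rita against Control (-0.00989 under quantile normalization and -0.00845 with the same total), and with B87 + DMKG + Rita against Control FARSB (-0.24, same total), GARS (-0.0940 and -0.0802, quantile and same total), LARS (-0.25, same total) and TARS (-0.16 and -0.14, quantile and same total). Against B87 + DMKG they turned for WARS with Nutlin-3 added (-0.13, same total), and with Rita added for FARSA (-0.21 and -0.23, quantile and same total) and HARS (-0.0264, same total). Replicate numbers did not pair the samples: of 105 pairs of same-numbered libraries, 6 had deviations correlated above 0.1, from -0.21 to 0.19. With the replicate block, 5 calls were lost and 1 was gained, with 14 for DMKG, 26 for B87 + DMKG and 21 for Nutlin-3 against Control. At 33.4 to 82.5 M reads every synthetase gene averaged at least 291 normalized reads, so depth limited chiefly PARS2, WARS2 and FARS2.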

Other observations

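Enzymes that mature and modify transfer RNA, the substrate of the synthetases, moved in both directions. TRMT10C, a subunit of the mitochondrial RNase P that cuts transfer RNAs from mitochondrial transcripts, fell in all 6 treatments other than B87: -1.13 in B87 + DMKG + Rita, -1.73 in B87 + DMKG + Nutlin-3, -0.92 in B87 + DMKG, -0.62 in DMKG, -0.36 in Rita and -0.38 in Nutlin-3, all log2 fold changes against the same Control libraries. MTO1 and TRMU, which modify the wobble base of mitochondrial transfer RNAs, fell with B87 + DMKG (-0.64 and -0.39) and with DMKG alone (-0.40 and -0.51). SEPSECS, the last enzyme in the making of selenocysteinyl-tRNA, fell with B87 + DMKG (-1.37). TRMT1 (0.87), a methyltransferase, and QTRT1 (0.74), which puts queuine into transfer RNA, rose with B87 + DMKG, as did AARSD1 (0.55), an editing protein related to AARS.

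Cytosolic elongation factors fell with B87 + DMKG in EEF1A1 (-0.43), EEF1B2 (-0.41) and EEF1D (-0.47), and EEF1G rose (0.15). Of the 7 genes on this list, 6 were higher and 1 lower (EEF2K, -0.81, the kinase that inhibits EEF2) with Rita added to B87 + DMKG (median 0.51, against 0.00 over all rows), where 33.1% of all rows were higher and 34.2% lower. With Nutlin-3 added 6 were higher and 0 lower (median 0.54, against -0.05 over all rows), where 26.5% of all rows were higher and 32.3% lower.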
